A study of Mus musculus with 21 samples.

Results

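The genes described here are the enzymes that make cholesterol from acetyl-CoA together with the SREBP2 regulators that set their transcription and a few carriers of finished sterol. They were taken by name from the gene column of the deposited count table, and all 27 named genes were found among its 32643 genes. RNA had been sequenced from whole testes of 21 mice at postnatal day 10, 1 library per animal, on 1 flowcell. The mice were knockouts (KO) of FXRα, the nuclear bile acid receptor encoded by Nr1h4, or wild type (WT). All groups shared a mixed background of the strains 129sv and C57Bl6. Each genotype had animals given bisphenol A (BPA), a component of plastics that acts as a weak estrogen, animals given stigmasterol (a plant sterol), and animals given vehicle. The 3 KO groups held 3 animals each and the 3 WT groups 4 each. The sources used here do not give the doses, the route, the litters or the deleted exons. The p-values set differences between group means against the spread between these animals, and shared litters could not be taken into account.

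Cholesterol synthesis starts in the mevalonate pathway, passes through squalene to the first sterol, lanosterol, and ends with a series of reductions and demethylations. SREBP2, a membrane-bound transcription factor, is carried to the Golgi by SCAP when sterol in the endoplasmic reticulum is low. INSIG proteins hold SCAP back when sterol is plentiful, so that most of these enzymes are transcribed together. In the testis cholesterol serves the membranes of dividing cells and, in Leydig cells, the synthesis of androgen. Bile acids, the ligands of FXRα, are themselves made from cholesterol.

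The libraries held 35459523 to 61498855 counted reads, and each of the 27 genes had between 461 and 25071 reads in every library. All 27 passed the filter on low counts and were tested among 20254 genes. Levels are counts-per-million (CPM) after scaling for library composition. Nr1h4 was at 0.172 to 0.492 CPM in the 9 KO libraries and at 0.241 to 0.868 CPM in the 12 WT libraries, so that its level over the whole gene overlapped and does not check each label. Cdh16, a cadherin of kidney and genital duct epithelium, reached 10 CPM or more in 6 of 9 KO and 3 of 12 WT libraries. It was highest in KO stigmasterol animal T93 (203 CPM), whose library stands apart below. Alb, the liver's main plasma protein, was at 10 CPM or more in KO BPA animal T25 and WT BPA animals T61 and T75. The defining markers of the testis were present: each of the 16 Sertoli and 9 Leydig cell markers was above 0 in every library.

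Compared per kilobase of annotated exon, the 27 genes spanned a 27.1-fold range of mean level in WT testes. Hmgcs1 was the highest, at 60.5 ± 6.18 CPM per kb in KO testes (SD, n = 9) and 85.7 ± 15.5 CPM per kb in WT testes (SD, n = 12). Srebf2 (35.4 ± 2.88 in KO and 40.5 ± 3.10 CPM per kb in WT), Insig1 (33.7 ± 3.29 and 37.6 ± 3.23) and Scap (28.6 ± 1.97 and 28.8 ± 2.12) came next, with KO first in each pair of means. Tm7sf2 was the lowest, at 3.10 ± 0.18 CPM per kb in KO and 3.16 ± 0.402 CPM per kb in WT testes. Only 2 of the 26 neighbouring pairs in this order did not overlap between WT animals: Hmgcs1 lay wholly above Srebf2, and Npc1 wholly above Tm7sf2. The lengths are the union of all annotated exons (GENCODE M21), which was 1.06 to 17.2 times the gene length used by the authors. Across the 27 genes the order by the authors' length-scaled signal had a Spearman correlation of 0.65 with the order given here, so ranks between genes depend on the gene model. Between animals of 1 group the log2 level varied least for Scap (SD 0.0893) and most for Soat1 (SD 0.299), with a median SD of 0.137.

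The promoter windows show which of these genes carry the letters of a sterol regulatory element close to their start. RefSeq promoter windows (GRCm38.p6; 250 bases before to 50 after the start) were at hand for 22 of the 27 genes. The core of the sterol regulatory element, CACNCCAC on either strand, was found in 3 of the 22 (13.6%, against 7.12% of 27025 genes), namely Hmgcs1, Acat2 and Insig1. CCAAT boxes, the site of the SREBP partner NF-Y, were in 20 of 22 (90.9%, against 41.1% of genes). The GC box GGGCGG was likewise in 20 of 22 (90.9%, against 38.2%). Motif letters on both strands were counted, and none of the motifs contains another. Shown 5′ to 3′ on the gene's strand, with sterol element cores and CCAAT boxes of either strand in capitals, are stretches of 150 to 190 bases from the 3 windows with a sterol element and from that of Mvk, which had the most CCAAT boxes (5). The whole windows hold 4 CCAAT boxes in Hmgcs1 and 1 in Insig1, of which the stretches show 1 and 0. The stretches are chr13:119690201-119690350 (plus strand) for Hmgcs1, chr17:12960726-12960915 (minus) for Acat2, chr5:28071262-28071411 (plus) for Insig1 and chr5:114444089-114444268 (plus) for Mvk, each ending 1 base before the start given by RefSeq.
Hmgcs1: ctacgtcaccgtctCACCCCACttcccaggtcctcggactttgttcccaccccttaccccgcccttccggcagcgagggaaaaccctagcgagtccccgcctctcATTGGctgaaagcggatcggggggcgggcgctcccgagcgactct
Acat2: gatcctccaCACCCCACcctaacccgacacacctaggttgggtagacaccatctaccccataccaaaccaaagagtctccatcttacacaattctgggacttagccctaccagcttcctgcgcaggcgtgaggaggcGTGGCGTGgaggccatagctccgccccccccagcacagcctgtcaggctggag
Insig1: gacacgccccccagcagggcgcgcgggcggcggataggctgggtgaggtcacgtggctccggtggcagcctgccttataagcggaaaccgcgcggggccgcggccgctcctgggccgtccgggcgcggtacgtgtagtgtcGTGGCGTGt
Mvk: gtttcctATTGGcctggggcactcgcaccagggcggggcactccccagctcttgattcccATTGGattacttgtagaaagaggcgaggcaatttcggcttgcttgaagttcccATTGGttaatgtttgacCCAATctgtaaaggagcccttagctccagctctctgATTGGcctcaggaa
The core begins 136 bases before the start in Hmgcs1 and 9 bases before it in Insig1, and Acat2 has it at 181 and at 53 bases. A match describes letters only. Of the 3 genes with these letters, Hmgcs1 was lower in KO testes, Acat2 was higher and Insig1 was not called, as described with each gene.

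The comparison of genotypes asks how the pathway stands in testes that lack FXRα. Averaged over the treatments, 14 of the 27 genes were lower in KO testes and 1, Acat2, was higher at an adjusted p under 0.05 (edgeR quasi-likelihood test, Benjamini-Hochberg over all genes tested, two-sided). Over all genes tested the shares were 7.07% lower and 6.85% higher, 13.9% in either direction. The median log2 fold change of the 27 genes, KO against WT, was -0.18 and that of all genes 0.01, and 23 of the 27 were negative against 46.7% of all genes. The size was modest: Hmgcs1 was 29.0% lower, Soat1 25.5% and Ebp 20.9%, and the other 11 that fell were 11.8% to 16.3% lower. None of the 27 separated the 9 KO from the 12 WT animals without overlap, and over all genes 0.617% were wholly lower and 0.434% wholly higher in KO. In a whole testis, fewer cells of a type and less RNA per cell cannot be told apart.

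**Figure D1:**
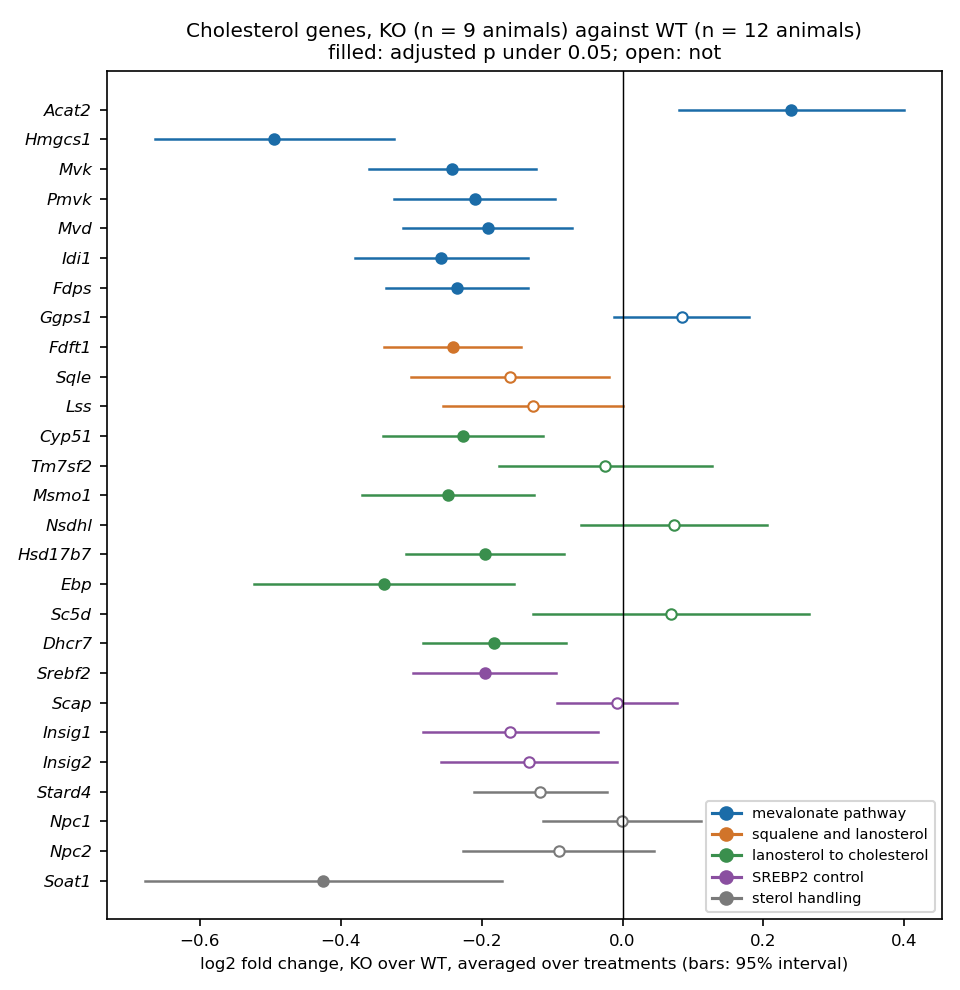
Log2 fold change of each of the 27 genes, KO (n = 9) over WT (n = 12) averaged over the treatments, with the 95% interval of the edgeR fit as bars; colours mark the step of the pathway and filled points passed an adjusted p of 0.05. Hmgcs1 lies farthest left at -0.49, Acat2 is the only filled point to the right at 0.24, and Tm7sf2, Scap and Npc1 lie closest to zero.

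Values of single animals are listed in a fixed order: T25, T83 and T117 for KO BPA, T10, T15 and T93 for KO stigmasterol and T1, T90 and T110 for KO vehicle. The WT order is T60, T75, T61 and T74 for BPA, T78, T98, T118 and T119 for stigmasterol and T66, T71, T79 and T81 for vehicle. All positions are of build mm10, for the whole gene.

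The mevalonate pathway held the largest fall and the only rise. Of its 8 enzymes 6 were lower and 1 was higher in KO testes, and Ggps1, at the branch to protein prenylation, was not called. Hmgcs1 (ENSMUSG00000093930, chromosome 13, 119690462 to 119708086) makes HMG-CoA, an early intermediate of the pathway. The letters of a sterol element core lie near its RefSeq start. It was at 311, 292 and 271 CPM in KO BPA animals, 297, 275 and 214 CPM in KO stigmasterol animals and 261, 286 and 294 CPM in KO vehicle animals. In WT animals it was at 334, 339, 345 and 330.3 CPM in WT BPA animals, 437, 359, 456 and 516 CPM in WT stigmasterol animals and 393, 301, 408 and 505 CPM in WT vehicle animals. In 8 of the 9 KO animals Hmgcs1 was below every WT animal, the exception being KO BPA animal T25, which lay above WT vehicle animal T71. The fold change was -0.49 ± 0.081 (SE, adjusted p = 0.000508). Acat2 (ENSMUSG00000023832, chromosome 17, 12942890 to 12960747), the cytosolic thiolase that joins acetyl-CoA units at the pathway's entry and holds a pair of sterol element cores, went the other way. It was at 37.6, 45.04 and 40.5 CPM in KO BPA animals, 55.3, 47.2 and 48.96 CPM in KO stigmasterol animals and 57.7, 56.1 and 35.7 CPM in KO vehicle animals. In WT testes, Acat2 was at 39.97, 31.5, 39.7 and 32.9 CPM in WT BPA animals, 38.04, 42.2, 40.4 and 39.6 CPM in WT stigmasterol animals and 48.3, 45.3, 39.6 and 41.1 CPM in WT vehicle animals. In 4 of 9 KO animals it was above all WT animals, and KO vehicle animal T110 was below all 4 WT vehicle animals. Its fold change was 0.24 ± 0.0763 (SE, adjusted p = 0.0432). That call held in 6 of the 21 fits that left out 1 animal, those without T25, T60, T61, T66, T98 or T110. It was lost in the other 15, with adjusted p up to 0.114, and also in limma-voom and without the filter on low counts.

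Mvk and Pmvk, kinases that add a phosphate each to mevalonate, were both lower. Mvk was at 23.1, 21.5 and 24.9 CPM in KO BPA animals, 20.3, 24.5 and 21.4 CPM in KO stigmasterol animals and 22.9, 26.2 and 23.9 CPM in KO vehicle animals. WT animals had Mvk at 27.3, 25.8, 29.6 and 25.01 CPM in WT BPA animals, 30.8, 24.5, 24.9 and 24.2 CPM in WT stigmasterol animals and 26.8, 30.8, 30.97 and 28.005 CPM in WT vehicle animals. In 6 of 9 KO animals Mvk was below every WT animal, and the fold change was -0.24 ± 0.0564 (SE, adjusted p = 0.00844). Pmvk was at 13.3, 12.9 and 13.9 CPM in KO BPA animals, 12.03, 11.9 and 12.1 CPM in KO stigmasterol animals and 11.2, 11.6 and 12.7 CPM in KO vehicle animals. WT animals had Pmvk at 15.2, 13.3, 15.5 and 12.5 CPM in WT BPA animals, 14.5, 12.2, 13.4 and 13.9 CPM in WT stigmasterol animals and 15.8, 14.2, 14.5 and 17.1 CPM in WT vehicle animals. All KO vehicle animals were below all WT vehicle animals, whereas BPA groups overlapped, and the averaged fold change was -0.21 ± 0.0544 (SE, adjusted p = 0.016). Mvd, the decarboxylase that yields isopentenyl diphosphate, was at 40.9, 34.02 and 35.4 CPM in KO BPA animals, 38.3, 43.8 and 33.2 CPM in KO stigmasterol animals and 39.3, 42.8 and 37.1 CPM in KO vehicle animals. WT animals had Mvd at 44.7, 38.6, 46.5 and 41.6 CPM in WT BPA animals, 47.7, 40.7, 41.4 and 39.5 CPM in WT stigmasterol animals and 46.9, 49.2, 46.5 and 41.7 CPM in WT vehicle animals. The genotypes overlapped within each treatment, and the fold change was -0.19 ± 0.0574 (SE, adjusted p = 0.0326). Mvd kept its call in 12 of the 21 fits without 1 animal and lost it without T1, T60, T61, T71, T78, T83, T93, T110 or T117 (adjusted p up to 0.0658).

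Idi1 and Fdps turn isopentenyl diphosphate into farnesyl diphosphate. Idi1, the isomerase, was at 68.1, 68.7 and 67.002 CPM in KO BPA animals, 72.9, 73.4 and 52.7 CPM in KO stigmasterol animals and 74.6, 73.7 and 63.7 CPM in KO vehicle animals. WT animals had Idi1 at 80.8, 71.1, 81.1 and 69.96 CPM in WT BPA animals, 87.04, 83.6, 86.7 and 76.1 CPM in WT stigmasterol animals and 92.6, 76.5, 89.5 and 85.9 CPM in WT vehicle animals. Within each treatment all KO animals were below all WT animals, and the fold change was -0.26 ± 0.0584 (SE, adjusted p = 0.00692). Fdps (ENSMUSG00000059743, chromosome 3, 89093592 to 89101967), the synthase, was at 69.1, 66.7 and 68.7 CPM in KO BPA animals, 62.9, 72.5 and 56.6 CPM in KO stigmasterol animals and 65.2, 74.8 and 65.4 CPM in KO vehicle animals. WT animals had Fdps at 80.2, 73.1, 81.3 and 71.9 CPM in WT BPA animals, 85.01, 71.02, 77.5 and 75.1 CPM in WT stigmasterol animals and 77.04, 87.1, 85.99 and 79.1 CPM in WT vehicle animals. Of the 9 KO animals 7 were below every WT animal for Fdps, with a fold change of -0.23 ± 0.0478 (SE, adjusted p = 0.00326). Fdps and Pmvk lie 0.357 Mb apart on chromosome 3, while the 27 genes as a whole lie on 15 chromosomes. Ggps1 draws farnesyl diphosphate off to geranylgeranyl diphosphate. It was at 40.6, 46.8 and 44.1 CPM in KO BPA animals, 40.96, 38.2 and 35.7 CPM in KO stigmasterol animals and 37.3, 42.5 and 41.9 CPM in KO vehicle animals. WT animals had Ggps1 at 40.7, 34.8, 38.6 and 35.2 CPM in WT BPA animals, 36.03, 38.4, 41.1 and 43.4 CPM in WT stigmasterol animals and 38.1, 39.9, 36.7 and 39.5 CPM in WT vehicle animals. The genotypes overlapped widely for Ggps1, and the fold change of 0.08 ± 0.0459 (SE, adjusted p = 0.25) did not pass.

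**Figure D2:**
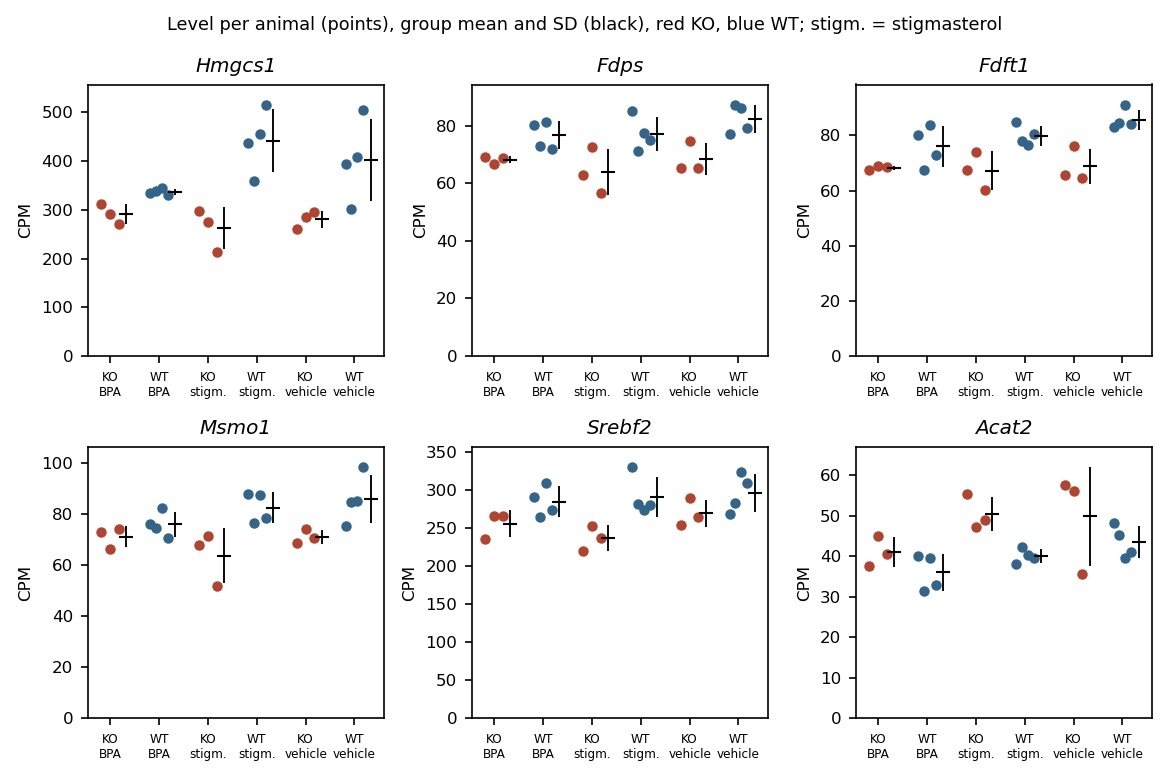
CPM (linear axes from 0) in each animal, with KO in red and WT in blue, for Hmgcs1, Fdps, Fdft1, Msmo1, Srebf2 and Acat2; black marks give each group's mean and SD (n = 3 KO or 4 WT animals). KO points lie lower than their WT neighbours in most panels, and in the panel of Acat2 the KO mean is the higher one in each treatment, with KO vehicle animal T110 (35.7 CPM) below all 4 WT vehicle animals.

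The plot by animal shows that the mean of KO animals was below that of WT animals in every treatment for Hmgcs1, Fdps, Fdft1, Msmo1 and Srebf2.

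Of the 3 enzymes between farnesyl diphosphate and lanosterol, 1 was lower in KO testes. Fdft1 (ENSMUSG00000021273, chromosome 14, 63145153 to 63177793), squalene synthase, commits farnesyl diphosphate to sterols. It was at 67.3, 68.9 and 68.6 CPM in KO BPA animals, 67.3, 74.1 and 60.1 CPM in KO stigmasterol animals and 65.6, 76.2 and 64.7 CPM in KO vehicle animals. WT animals had Fdft1 at 80.1, 67.4, 83.9 and 72.98 CPM in WT BPA animals, 84.9, 78.2, 76.5 and 80.5 CPM in WT stigmasterol animals and 82.9, 84.4, 91.2 and 84.1 CPM in WT vehicle animals. In 5 of the 9 KO animals Fdft1 was below every WT animal, of which WT BPA animal T75 was the lowest. Its fold change was -0.24 ± 0.0466 (SE, adjusted p = 0.00213), the second smallest adjusted p of the 27 genes. Lss, which folds the epoxide into lanosterol, was at 72.998, 65.8 and 71.7 CPM in KO BPA animals, 72.9, 76.5 and 53.5 CPM in KO stigmasterol animals and 73.5, 79.1 and 67.7 CPM in KO vehicle animals. WT animals had Lss at 81.04, 74.4, 80.05 and 75.8 CPM in WT BPA animals, 81.3, 83.7, 79.7 and 64.998 CPM in WT stigmasterol animals and 74.7, 76.2, 81.7 and 68.7 CPM in WT vehicle animals. The ranges overlapped, and the fold change of -0.13 ± 0.0608 (SE, adjusted p = 0.18) did not pass. Sqle, the epoxidase between them, ranged from 63.7 to 93.6 CPM in KO animals and from 75.3 to 110.4 CPM in WT animals. Its fold change of -0.16 ± 0.067 (SE, adjusted p = 0.126) passed only without WT vehicle animal T66 (adjusted p = 0.0463).

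Between lanosterol and cholesterol 5 of 8 enzymes were lower in KO testes and none was higher. Cyp51 (ENSMUSG00000001467, chromosome 5, 4081145 to 4104746), the lanosterol demethylase, was at 59.4, 61.6 and 63.7 CPM in KO BPA animals, 57.9, 64.6 and 46.9 CPM in KO stigmasterol animals and 65.3, 71.1 and 57.8 CPM in KO vehicle animals. WT animals had Cyp51 at 67.5, 66.6, 65.8 and 61.4 CPM in WT BPA animals, 78.995, 71.2, 76.8 and 69.6 CPM in WT stigmasterol animals and 69.6, 68.5, 81.5 and 78.1 CPM in WT vehicle animals. In 4 of 9 KO animals Cyp51 was below every WT animal, and the fold change was -0.23 ± 0.0544 (SE, adjusted p = 0.01). Msmo1 (ENSMUSG00000031604, chromosome 8, 64718139 to 64733792), which oxidises the next methyl groups, was at 72.8, 66.3 and 74.2 CPM in KO BPA animals, 68.02, 71.5 and 51.6 CPM in KO stigmasterol animals and 68.5, 74.1 and 70.6 CPM in KO vehicle animals. WT animals had Msmo1 at 76.1, 74.6, 82.2 and 70.8 CPM in WT BPA animals, 87.7, 76.5, 87.5 and 78.5 CPM in WT stigmasterol animals and 75.2, 84.8, 85.2 and 98.5 CPM in WT vehicle animals. The KO values of Msmo1 reached no higher than 74.2 CPM, a level all but 1 of the WT animals exceeded, and the fold change was -0.25 ± 0.0581 (SE, adjusted p = 0.00868). Hsd17b7, a ketosterol reductase, was at 29.8, 31.001 and 32.9 CPM in KO BPA animals, 30.8, 30.2 and 25.8 CPM in KO stigmasterol animals and 28.8, 34.8 and 29.96 CPM in KO vehicle animals. WT animals had Hsd17b7 at 37.5, 35.1, 34.03 and 35.3 CPM in WT BPA animals, 37.3, 38.1, 34.8 and 31.7 CPM in WT stigmasterol animals and 30.2, 32.7, 38.4 and 32.8 CPM in WT vehicle animals. The BPA and stigmasterol groups did not overlap, the vehicle groups did, and the fold change was -0.20 ± 0.0532 (SE, adjusted p = 0.021).

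Ebp (ENSMUSG00000031168, chromosome X, 8185329 to 8193512) shifts a ring double bond and Dhcr7 reduces another near the end of the route. Ebp was at 23.8, 25.4 and 25.02 CPM in KO BPA animals, 24.01, 21.1 and 25.02 CPM in KO stigmasterol animals and 30.2, 26.9 and 24.99 CPM in KO vehicle animals. WT animals had Ebp at 28.05, 23.1, 28.9 and 21.6 CPM in WT BPA animals, 26.9, 37.8, 37.7 and 37.96 CPM in WT stigmasterol animals and 39.6, 39.6, 25.3 and 38.999 CPM in WT vehicle animals. The KO animals lay close together between 21.1 and 30.2 CPM, while WT animals fell into a lower band (21.6 to 28.9 CPM) and a higher one (37.7 to 39.6 CPM). The averaged fold change was -0.34 ± 0.0879 (SE, adjusted p = 0.016), and just 1 KO animal was below all WT animals. Dhcr7 was at 86.2, 87.9 and 82.8 CPM in KO BPA animals, 78.96, 94.9 and 73.6 CPM in KO stigmasterol animals and 89.4, 93.8 and 83.7 CPM in KO vehicle animals. WT animals had Dhcr7 at 99.1, 84.9, 99.1 and 89.9 CPM in WT BPA animals, 105, 89.8, 98.4 and 103 CPM in WT stigmasterol animals and 94.5, 93.02, 104 and 105 CPM in WT vehicle animals. In 4 of 9 KO animals it was below every WT animal, with a fold change of -0.18 ± 0.0482 (SE, adjusted p = 0.0178). Tm7sf2, a reductase that shares its step with the lamin B receptor Lbr, was at 13.4, 12.6 and 14.8 CPM in KO BPA animals, 14.8, 13.2 and 13.5 CPM in KO stigmasterol animals and 14.3, 13.1 and 13.3 CPM in KO vehicle animals. WT animals had Tm7sf2 at 15.8, 14.3, 13.4 and 11.2 CPM in WT BPA animals, 12.2, 14.6, 13.3 and 13.6 CPM in WT stigmasterol animals and 16.9, 13.1, 11.96 and 16.4 CPM in WT vehicle animals. The groups overlapped in every treatment, and the fold change was -0.02 ± 0.0722 (SE, adjusted p = 0.864). Nsdhl, a sterol dehydrogenase, ranged from 30.7 to 36.9 CPM in KO and from 28.0 to 38.5 CPM in WT animals, and the desaturase Sc5d from 22.3 to 32.4 CPM in KO and from 19.7 to 34.7 CPM in WT animals. Their fold changes of 0.07 and 0.07 did not pass (adjusted p = 0.487 and 0.678).

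Of the 4 regulators 1 was lower in KO testes. Srebf2 (ENSMUSG00000022463, chromosome 15, 82147266 to 82205376) encodes SREBP2 itself, which acts on its own promoter as well. It was at 236, 266 and 266 CPM in KO BPA animals, 220.3, 254 and 238 CPM in KO stigmasterol animals and 255, 289.8 and 265 CPM in KO vehicle animals. WT animals had Srebf2 at 291, 265, 310.1 and 274 CPM in WT BPA animals, 331, 282, 273 and 281 CPM in WT stigmasterol animals and 268, 283, 324 and 309 CPM in WT vehicle animals. In 6 of 9 KO animals Srebf2 was below every WT animal, and the fold change was -0.20 ± 0.0483 (SE, adjusted p = 0.0119). Scap, its escort, was at 217, 200.3 and 195 CPM in KO BPA animals, 225, 228 and 194 CPM in KO stigmasterol animals and 232, 218 and 204 CPM in KO vehicle animals. WT animals had Scap at 202, 191, 207 and 198 CPM in WT BPA animals, 207, 233, 212 and 215 CPM in WT stigmasterol animals and 221, 226, 209 and 247 CPM in WT vehicle animals. The genotypes covered the same range for Scap, and the fold change of -0.01 ± 0.0405 (SE, adjusted p = 0.929) had a 95% interval of -0.09 to 0.08. Insig1, a retention factor that is itself a target of SREBP2, has the letters of a sterol element core next to its RefSeq start. It ranged from 84.2 to 116 CPM in KO and from 100.2 to 132 CPM in WT animals. Its fold change of -0.16 ± 0.059 (SE, adjusted p = 0.0818) passed only without KO stigmasterol animal T15 (adjusted p = 0.0266). Insig2, its relative, ranged from 52.8 to 65.1 CPM in KO and from 54.4 to 76.8 CPM in WT animals. The fold change of -0.13 ± 0.0596 (SE, adjusted p = 0.153) passed only without WT stigmasterol animal T78 (adjusted p = 0.0429).

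Among the 4 genes that handle finished sterol, 1 was lower in KO testes. Soat1 (ENSMUSG00000026600, chromosome 1, 156424525 to 156474331) esterifies cholesterol for storage in lipid droplets. It was at 86.9, 123 and 132 CPM in KO BPA animals, 98.6, 109.9 and 165 CPM in KO stigmasterol animals and 210.0, 143 and 122 CPM in KO vehicle animals. WT animals had Soat1 at 157, 141, 157 and 160.0 CPM in WT BPA animals, 144, 215, 229.7 and 251 CPM in WT stigmasterol animals and 189, 165, 139 and 181 CPM in WT vehicle animals. In 6 of 9 KO animals Soat1 was below every WT animal, but KO vehicle animal T1 was above 9 of the 12 WT animals. The fold change was -0.42 ± 0.121 (SE, adjusted p = 0.0259), lost in 4 of the 21 fits without 1 animal, those without T10, T15, T25 or T110 (adjusted p up to 0.0571). Npc1, which moves cholesterol out of lysosomes, was at 57.1, 59.7 and 55.4 CPM in KO BPA animals, 50.9, 55.5 and 53.5 CPM in KO stigmasterol animals and 46.7, 59.7 and 55.6 CPM in KO vehicle animals. WT animals had Npc1 at 55.2, 57.4, 55.7 and 61.8 CPM in WT BPA animals, 57.7, 52.9, 52.8 and 54.1 CPM in WT stigmasterol animals and 45.9, 48.7, 62.7 and 54.7 CPM in WT vehicle animals. The fold change of Npc1 was -0.0011 ± 0.0535 (SE, adjusted p = 0.994), with a 95% interval of -0.11 to 0.11, and the groups overlapped throughout. Npc2, its lysosomal partner, ranged from 123 to 169 CPM in KO and from 125 to 184 CPM in WT animals (-0.09, adjusted p = 0.392). Stard4, a cytosolic sterol carrier, ranged from 45.4 to 59.3 CPM in KO and from 52.7 to 66.3 CPM in WT animals. Its fold change of -0.12 ± 0.045 (SE, adjusted p = 0.0941) passed only without KO stigmasterol animal T15 (adjusted p = 0.05).

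Added up, the 19 enzymes from Acat2 to Dhcr7 took 941 to 1245 CPM in KO animals (mean 1143 ± 82.4, SD, n = 9) and 1197 to 1523 CPM in WT animals (mean 1357 ± 103, SD, n = 12). By treatment the sum was 1164 ± 16.3 CPM in KO BPA and 1258 ± 59.7 CPM in WT BPA testes. It was 1089.8 ± 129 CPM in KO stigmasterol and 1413 ± 65.6 CPM in WT stigmasterol testes. In the vehicle groups it was 1173 ± 62.2 CPM in KO and 1399 ± 108 CPM in WT testes. The gap was thus narrowest in the BPA groups. Of the KO animals only T90, a vehicle animal at 1245 CPM, lay within the WT range, above WT BPA animals T74 (1197 CPM) and T75 (1217 CPM). The lowest sum, 941 CPM, was that of KO stigmasterol animal T93, which was the lowest of all 21 animals for 14 of the 27 genes.

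Markers of neighbouring tissue and of Sertoli cells moved with genotype too. Averaged over treatments 7 of 9 tested markers of epididymis and ducts and 6 of 7 tested fat markers were higher in KO testes. Of the 16 Sertoli cell markers 9 were lower. Over all genes 6.85% were higher and 7.07% lower. In the other lists 1 of 9 Leydig markers was lower, and of 12 spermatogonial markers 1 was higher and 1 lower. Higher too were 1 of 6 endothelial and 1 of 4 tested red cell markers. No peritubular, macrophage or liver marker was called. The gene Nr5a1 stands in both the Sertoli and the Leydig list, so the counts of these lists are not independent. The summed level of the 11 epididymis and duct markers was 107 to 486 CPM in KO and 59.99 to 138 CPM in WT animals. Much of this sum was Epcam, at 72.2 to 181 CPM in KO and 40.1 to 76.7 CPM in WT animals. The sum was 107 CPM or more also in KO animals T15, T25 and T90, whose Cdh16 was at 0.949, 0.411 and 1.16 CPM. It is therefore not a measure of duct tissue alone. Some defining markers of the epididymis were at 0 in many libraries: Lcn5 in 18, Rnase9 in 12, Krt5 in 8 and Defb1 in 7. The 8 fat markers summed to 10.5 to 102 CPM in KO and 9.54 to 21.03 CPM in WT animals, with Lep at 0 in 13 libraries. The 16 Sertoli markers summed to 6746 to 8077 CPM in KO and 7221 to 12247 CPM in WT animals, and the 9 Leydig markers to 549 to 845 CPM in KO and 586 to 1084 CPM in WT animals. The 16 meiotic markers, of which none was called, summed to 875 to 2634 CPM in KO and 645 to 3023 CPM in WT animals, and the 11 liver markers to 13.2 to 55.1 CPM in KO and 10.4 to 1122 CPM in WT animals. The part of these cell types in the cholesterol gene result was not tested beyond leaving out libraries.

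Leaving out the 9 libraries in which Cdh16 reached 10 CPM kept 1 KO animal per treatment (T15, T25 and T90), whose variation is assumed to be that of WT animals. Then 0 of the 27 genes were called by edgeR, 6 had an unadjusted p under 0.05 (12.8% of all genes did, and 1.23% were called), 21 were negative, and the median was -0.12. The fold change of Soat1 was -0.68 there (adjusted p = 0.0956), that of Hmgcs1 -0.40 (0.201) and that of Ebp -0.41 (0.367). Some enzymes moved closer to zero: Mvd to -0.08, Dhcr7 to -0.09, Cyp51 to -0.12, Fdps to -0.14 and Msmo1 to -0.15. Acat2 was at 0.20 (adjusted p = 0.366). Without the 3 libraries with Alb at 10 CPM or more, 8 genes were called, all lower: Hmgcs1, Mvk, Mvd, Idi1, Fdps, Fdft1, Msmo1 and Dhcr7. Over all genes 7.46% were called in this fit, against 13.9% in the main test. The other 7 calls were lost there with adjusted p of 0.0523 to 0.0929.

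**Figure D3:**
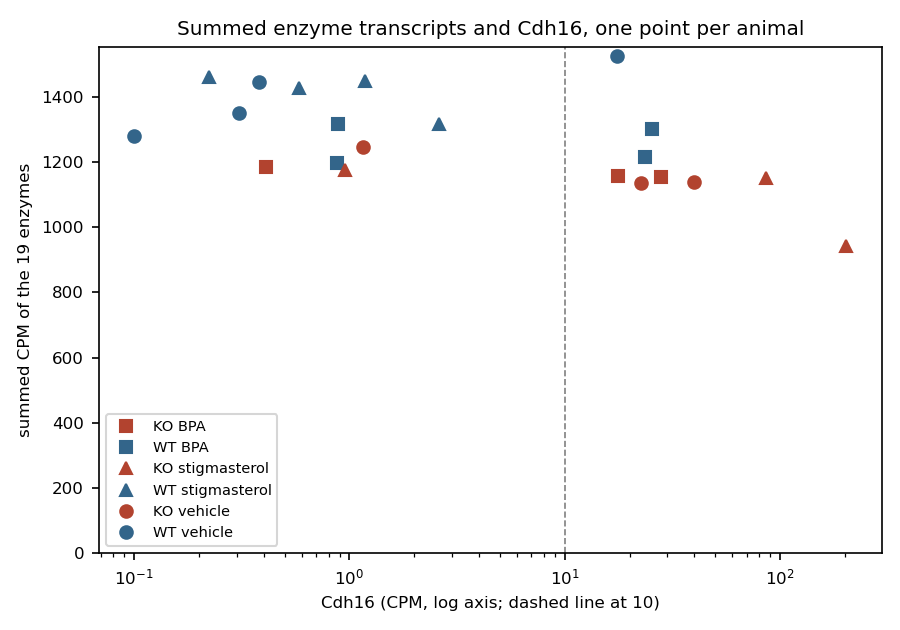
Summed CPM of the 19 enzymes (linear axis from 0) against Cdh16 (log axis) in each of the 21 animals, with KO in red, WT in blue and a symbol per treatment; the dashed line marks 10 CPM of Cdh16. KO stigmasterol animal T93 lies lowest at 941 CPM and farthest right at 203 CPM of Cdh16, and the KO animals left of the line (T15, T25 and T90) lie at 1176, 1183 and 1245 CPM.

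In this plot KO vehicle animal T90 lies at the median of all 21 animals (1245 CPM). The 3 WT animals right of the line, T60, T75 and T81, lie at 1301, 1217 and 1523 CPM, above the 6 KO animals there (941 to 1158 CPM).

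Within single treatments fewer genes passed. In the BPA groups none of the 27 passed in edgeR, DESeq2 or limma-voom, and 0.859% of all genes passed in edgeR (0.43% lower and 0.43% higher). At an unadjusted p under 0.05 there were 4 (14.8%, against 8.16% of all genes). In the stigmasterol groups 6 were lower in KO testes and none was higher, against 7.21% of all genes in either direction (3.34% lower and 3.87% higher). In the vehicle groups 2 were lower, against 2.92% of all genes (1.68% lower and 1.24% higher). Without adjustment, 17 had an edgeR p under 0.05 under stigmasterol (63.0%, against 21.3% of all genes) and 10 under vehicle (37.0%, against 20.9%). The medians of the 27 genes were -0.10 under BPA, -0.25 under stigmasterol and -0.13 under vehicle, and those of all genes 0.01, 0.02 and 0.01. The 95% intervals had a median half-width of 0.21 on the log2 scale in each of them.

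None of the calls in the stigmasterol or vehicle groups held when only the groups compared were fitted or when the Cdh16 libraries were left out: 0 of 27 were called in each of these fits. The 6 genes lower under stigmasterol were Hmgcs1 (-0.75, adjusted p = 0.00403), Cyp51 (-0.39, adjusted p = 0.0168), Msmo1 (-0.37, adjusted p = 0.03), Ebp (-0.59, adjusted p = 0.0258), Srebf2 (-0.30, adjusted p = 0.0372) and Soat1 (-0.75, adjusted p = 0.0367). Leaving out each of the 7 animals in turn, Hmgcs1 kept its call in all 7 fits and Cyp51 in 6, losing it without KO animal T93 (adjusted p = 0.0875). Msmo1 and Srebf2 kept theirs in 3, Soat1 in 2 and Ebp in 1. Without T93, 2 of the 27 genes were called, and without WT animal T118 or T119 3 were. Under vehicle the genes were Pmvk (-0.38, adjusted p = 0.036) and Fdft1 (-0.31, adjusted p = 0.0406), kept in 3 and in 1 of 7 such fits. No member was called there without KO animal T1 or WT animal T66 or T81, and 1 was called without KO animal T90 or T110. Hmgcs1 was at -0.52, adjusted p = 0.0529 under vehicle and at -0.21, adjusted p = 0.823 under BPA. Calls over all genes varied widely too. Leaving out single animals gave 637 to 1475 genes under stigmasterol (1461 in the main test) and 242 to 986 under vehicle (592 in the main test). The 7 other alternatives gave 85 to 2173 under stigmasterol and 56 to 1397 under vehicle.

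Counted by overlap alone, 10 genes were wholly lower in KO under BPA (5.24% of all genes), 9 under stigmasterol (8.59%) and 7 under vehicle (8.07%). Hmgcs1 and Idi1 were on each of these lists. Wholly higher in KO were Sc5d under BPA (5.12% of all genes) and Acat2 under stigmasterol (8.44%), and no member under vehicle (8.25%). Whether the genotype difference itself changed with treatment was tested by the interactions. In edgeR 0 of 27 passed for BPA (0.0148% of all genes passed) and 0 for stigmasterol (0.00987% of all genes passed), and DESeq2 and limma-voom also called none. At an unadjusted p under 0.05 there was 1 for BPA (3.7%, against 8.83% of all genes) and there were 2 for stigmasterol (7.41%, against 9.16%). For Hmgcs1 the interaction was 0.31 (95% interval -0.10 to 0.72) with BPA and -0.23 (-0.65 to 0.18) with stigmasterol. Soat1 had -0.66 (-1.28 to -0.05, adjusted p = 0.523) with stigmasterol. The differences between treatments in the number of genes called are thus not shown to be differences in the effect.

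**Figure D4:**
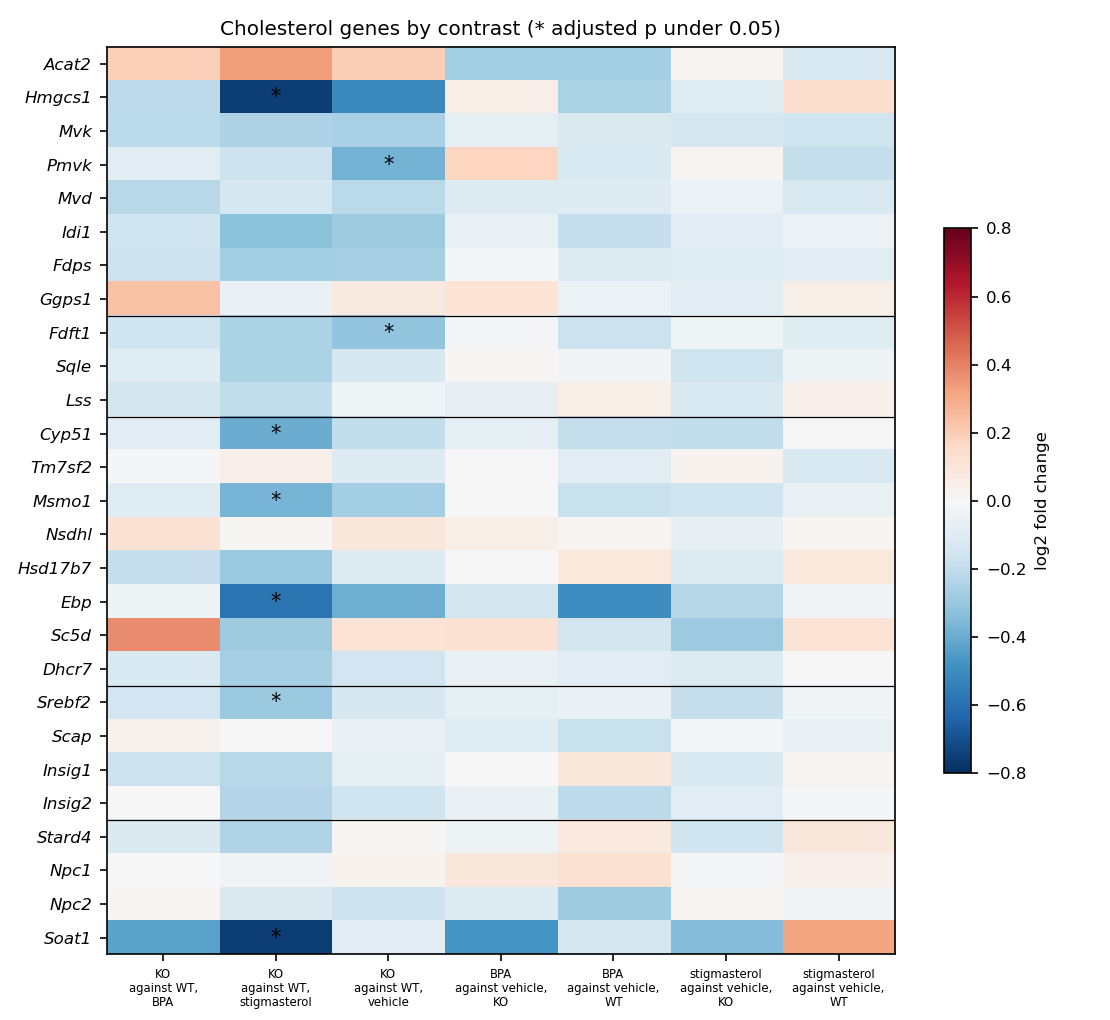
Log2 fold change (colour; blue lower, red higher in the group named first) of the 27 genes in 3 comparisons of KO with WT and 4 of treatment with vehicle, with asterisks at an adjusted p under 0.05 and lines between the steps of the pathway. Asterisks stand only in the genotype columns for stigmasterol (6) and vehicle (2), and the columns of treatment against vehicle are mostly pale.

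This map sets the genotype columns beside the treatment columns, which share animals: each vehicle group serves both of its treatments, so the columns are not independent.

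No cholesterol gene was called for either treatment in the main test. BPA against vehicle in KO testes gave 0 of 27 (0.0148% of all genes passed) with a median of -0.04, and stigmasterol against vehicle in KO testes 0 of 27 (0% of all genes) with a median of -0.10. BPA against vehicle in WT testes gave 0 of 27 (0% of all genes) with a median of -0.11, and stigmasterol against vehicle in WT testes 0 of 27 (0.00494% of all genes) with a median of -0.02. At an unadjusted p under 0.05 edgeR had 1 for BPA in KO (4.31% of all genes), 0 for stigmasterol in KO (3.85%), 7 for BPA in WT (18.8%) and 1 for stigmasterol in WT testes (8.26%). The 7 are 25.9% of the 27. limma-voom called none in any of them, and DESeq2 called 1, Ebp, for BPA in WT testes and none elsewhere. The authors' deposited table has the same gene, Ebp, as its only one of the 27 under an adjusted p of 0.05 (log2 fold change -0.5, adjusted p of 0.01), for BPA in WT testes. The 95% intervals of stigmasterol in WT testes lay within 0.5 log2 units either way for 26 of the 27 genes, Soat1 being the exception (up to 0.72). The number was 23 for BPA in WT, 25 for BPA in KO and 24 for stigmasterol in KO testes.

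Ebp had the largest shift under BPA in WT testes. It was at 28.0, 23.1, 28.9 and 21.6 CPM in WT BPA animals, against 39.6, 39.6, 25.3 and 39.0 CPM in WT vehicle animals. The single low one of the vehicle group, T79, lay among the BPA animals. The log2 fold change was -0.50 ± 0.14 (SE; 95% interval -0.79 to -0.20), with an adjusted p of 0.0841 in edgeR, 0.0229 in DESeq2 and 0.124 in limma-voom. Without T79 it was -0.63 (adjusted p = 0.0121), and Npc2 was then called too (-0.37, adjusted p = 0.0304). In KO testes BPA moved Ebp by -0.15 (adjusted p = 0.902). Its interaction was 0.35 (95% interval -0.10 to 0.80, adjusted p = 0.629), so a difference between genotypes in the response was not shown. The other 6 genes at an unadjusted p under 0.05 in WT, where 18.8% of all genes were, had the fold changes Acat2 (-0.27), Fdft1 (-0.17), Cyp51 (-0.19), Scap (-0.18), Insig2 (-0.21) and Npc2 (-0.28), with adjusted p from 0.15 to 0.251. Cyp51 and Scap were wholly lower in BPA than in vehicle animals (4.4% of all genes), and no member was wholly higher (3.69%).

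**Figure D5:**
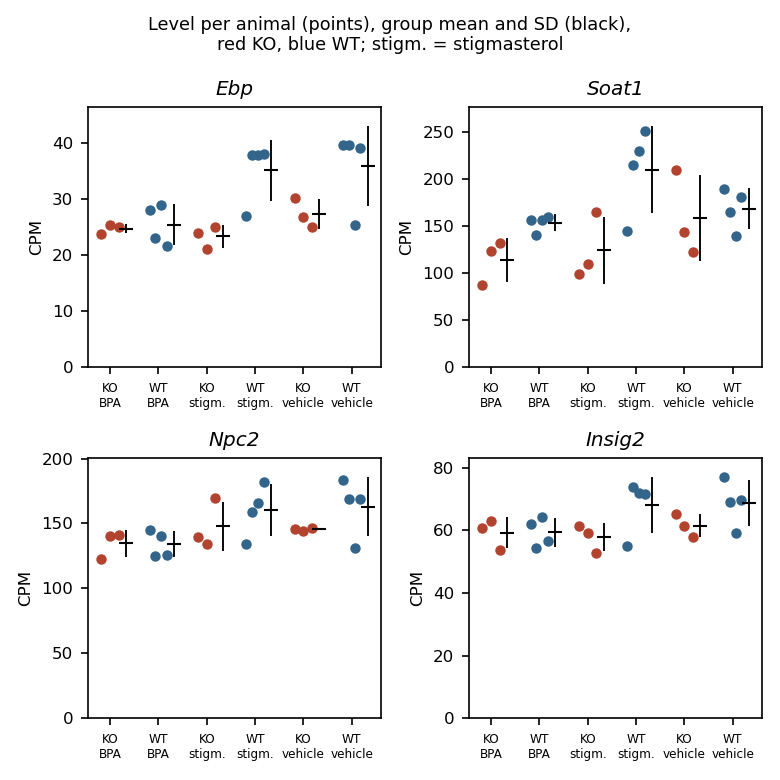
CPM (linear axes from 0) of Ebp, Soat1, Npc2 and Insig2 in each animal, with KO in red and WT in blue; black marks give each group's mean and SD (n = 3 KO or 4 WT animals). In WT stigmasterol and WT vehicle groups 1 animal lies well below its group for Ebp (T78 at 26.9 CPM and T79 at 25.3 CPM), at the level of the BPA animals.

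The same arrangement, noticed after the values were seen, held for 5 of the 27 genes: Ebp, Scap, Insig2, Npc2 and Soat1. Over all genes tested 3.81% had this split and 2.23% had the opposite one. For each of them WT stigmasterol animal T78, WT vehicle animal T79 and the 4 WT BPA animals were all below the other 6 WT animals. For Soat1 these 6 were at 139 to 160.0 CPM and the others at 165 to 251 CPM. Npc1 had the opposite split, at 55.2 to 62.7 CPM in these 6 and at 45.9 to 54.7 CPM in the others. T78 and T79 were not low for every gene: their Sqle, at 108 and 110.4 CPM, and Insig1, at 132 and 129 CPM, were above all other WT animals. The animal numbers T78 and T79 are consecutive, and the labels give no litter and no other trait that sets these animals apart.

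Stigmasterol in WT testes gave its largest shifts in Soat1 (0.32) and Pmvk (-0.19), the only one of the 27 at an unadjusted p under 0.05 (adjusted p = 0.591). No member was wholly lower (1.9% of all genes) or wholly higher (1.54%). In KO testes stigmasterol moved Soat1 by -0.35, Sc5d by -0.29 and Ebp by -0.23, none with an unadjusted p under 0.05. Srebf2 was wholly lower in KO stigmasterol than in KO vehicle animals (4.96% of all genes), at 220.3, 254 and 238 CPM in KO stigmasterol against 255, 289.8 and 265 CPM in KO vehicle animals. No member was wholly higher there (4.63%). BPA in KO testes left Pmvk wholly higher (5.79% of all genes) and Npc2 wholly lower (5.35%). Soat1 had the one unadjusted p under 0.05 there (-0.48, adjusted p = 0.896).

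Genes of the pathway outside the 27 were described from lists. Aacs, which activates acetoacetate for lipid synthesis, was lower in KO testes averaged over treatments (log2 fold change -0.22, adjusted p = 0.00416). Among genes of SREBP processing Faf2, which helps extract proteins from the endoplasmic reticulum, was lower (-0.16, 0.0174). Over all genes 7.07% were lower in this contrast and 6.85% higher, so that Faf2, as 1 of 12 genes tested in its list, is near the background. This does not apply to the list that holds Aacs, of which some genes are not reported here. In the isoprenoid branch 1 of 15 was lower, Nus1 (-0.11, 0.0281), a subunit of the enzyme that makes the chain of dolichol. Of 12 lipogenic genes under SREBP1, 3 were lower (Me1 -0.28, Scd2 -0.34 and Elovl5 -0.24) and 2 were higher (Lpin1 0.29 and Pnpla3 0.51). Of 12 genes of sterol transport and esters only the HDL receptor Scarb1 was lower (-0.37, adjusted p = 0.000968).

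Likeness to Sqle was described over all 21 animals together, so differences between genotypes and treatments enter each value. Pearson's r of log2 CPM with Sqle was 0.88 for Insig1, 0.85 for Hsd17b7 and 0.84 for Stard4. Over the 26 other members it was positive for 18 and negative for 8, with a median of 0.55 and the lowest value, -0.47, for Npc2. The 5 genes outside all lists with the highest r were Dhx38 (0.81), Prr5 (0.78), Dcp2 (0.77), Rnf44 (0.77) and Zbtb34 (0.76).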

How the data were processed

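Total RNA of whole testes from 21 mice was made into TruSeq libraries, a kit that does not keep strand, per the labels' protocols, so reads from overlapping antisense genes cannot be told apart. Per the submitters' processing notes the build was mm10 and the tools included TopHat2 2.0.10, Bowtie2 2.1.0, Bowtie and CASAVA 1.8.2. The sources used here do not give the counter, its annotation or how it treated reads shared by gene copies. The authors deposited read counts per gene, which were used for all tests. The authors also deposited a normalized signal per gene, and a length-scaled signal. The ratio of count to normalized signal lay within 0.1 percent of a constant for 100.0% of the values compared, which left out low counts. Log2 fold changes and adjusted p-values of treatment against vehicle come from the authors' deposited table where so named.

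Counts were scaled by TMM and filtered with filterByExpr (minimum count 10, minimum total 15), leaving 20254 of 32643 genes, of which 564 had no read. One edgeR 4.0.16 quasi-likelihood model (R 4.3.3) with 6 group means and 15 residual degrees of freedom gave 10 contrasts, each adjusted by Benjamini-Hochberg over all genes tested with a threshold of 0.05, two-sided. The standard error of a log2 fold change is its size over the root of F, and intervals cover 95%. Log2 CPM used a prior count of 2. The biological coefficient of variation was 19.2%. Counts of members ran from 461 to 25071 per library. The scripts were tested on simulated data with known changes. The alternatives were DESeq2 size factors, no filter, DESeq2 1.42.0, limma-voom (limma 3.58.1), only the groups compared, each animal left out, and libraries with Cdh16 or Alb at 10 CPM or more left out. Members called in a contrast, and in each step of the pathway those with the smallest and the largest p of the averaged genotype contrast, are given in full, and the others by range. Of other pathway genes those called are named, except that some are not reported here. The members, the gene and marker lists and the tissue thresholds were chosen with earlier results of these data known.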

Additional observations from a re-analysis of the deposited data

Results flagged for a closer look

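In 7 of the 81 groups of 4 WT animals examined (27 genes in 3 groups), 1 animal lay far from the other 3, with a gap to its nearest neighbour, over the group's range, above Dixon's 95% critical value. Chance flags about 1 in 20 such groups. WT stigmasterol animal T78 accounted for 4 of them. It was high for Mvk, at 30.8 CPM against 24.2 to 24.9 CPM in the other 3 animals, and for Srebf2, at 330.8 CPM against 273 to 282 CPM. It was low for Ebp, at 26.9 CPM against 37.7 to 38.0 CPM, and for Insig2, at 54.96 CPM against 71.6 to 73.9 CPM. WT vehicle animal T79 was low for Ebp, at 25.3 CPM against 39.0 to 39.6 CPM. Among WT BPA animals T74 was low for Sc5d, at 19.7 CPM against 26.0 to 26.7 CPM, and T75 was low for Soat1, at 140.5 CPM against 157 to 160.0 CPM. No cause of these values was tested.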

How the results depend on the processing

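Counts are of the 27 genes called, and no called gene changed direction under any alternative run. For KO against WT averaged over treatments, 15 were called in the main test, 8 without the libraries high in Alb and 0 without those high in Cdh16, and leaving out each animal gave 13 to 16. Under vehicle the main 2 became 4 with DESeq2, 1 without the filter on low counts, 1 without the Alb libraries, 0 with only the groups compared and 0 without the Cdh16 libraries, and leaving out each animal gave 0 to 2. Under stigmasterol the main 6 became 10 with DESeq2 size factors, 12 with DESeq2, 0 with only the groups compared and 0 without the Cdh16 libraries, and leaving out each animal gave 2 to 9, the lowest without T93 and the highest without T15. Under BPA each alternative gave 0. For BPA against vehicle in WT testes the main 0 became 1 with DESeq2, and leaving out each animal gave 0 to 2, the highest without T79. The other 3 treatment contrasts and both interactions gave 0 in each alternative. Leaving out libraries and fitting only the groups compared leave fewer animals; other causes were not tested. Over all genes the averaged genotype contrast called 2820, with 2171 to 3239 when each animal was left out and 257 to 3404 under the other alternatives, and BPA in WT testes called 0, with up to 1321 and up to 1018. All genes called under stigmasterol numbered 1461 in the main test and 85 to 2173 under the other alternatives. Under vehicle these numbers were 592 and 56 to 1397. Without the Alb libraries the averaged contrast called 1530 genes. No paired analysis was possible because the groups share no replicate numbers. A fit of only the groups compared was not run for the averaged contrast, which uses all 6 groups. With 3 or 4 animals a group, the median 95% interval of a treatment contrast reached 0.19 log2 units either way in WT and 0.22 in KO testes.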
